A study of Homo sapiens with 6 samples.

Results

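Molecular chaperones are proteins that help other proteins to fold, to stay soluble and to be degraded when they are damaged. HSP70 proteins bind unfolded segments and release them in a cycle driven by ATP; J-domain proteins (DNAJA, DNAJB and DNAJC) bring substrates to HSP70 and stimulate its ATPase, and BAG proteins help HSP70 to release nucleotide. HSP90 proteins act on partly folded clients such as kinases, small heat shock proteins hold aggregation-prone proteins, and the HSPD1 and HSPE1 pair forms the folding chamber of mitochondria. Heat shock factors (HSF) are the transcription factors that induce many of these genes under stress, and cancer cells often keep high chaperone levels.

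The genes described here are the 84 protein-coding rows of the deposited table, of 58735 rows in all, whose symbols belong to the HSPA, HSPB, HSPD, HSPE, HSPH, HSP90, DNAJA, DNAJB, DNAJC, HSF or BAG families. The rule used symbols and biotype only, but it was chosen with earlier results of these data known. They comprised 13 HSP70 and 3 HSP110 rows, 3 HSP90 genes, 2 mitochondrial chaperonin genes, 8 small heat shock protein genes, 4 DNAJA, 12 DNAJB, 29 DNAJC, 6 BAG and 4 HSF genes. HSPA14 occupied 2 rows under different gene IDs, so the 84 rows carried 83 symbols. By the usual site of the protein, 39 rows were assigned to the cytosol, 15 to the endoplasmic reticulum (ER), 8 to mitochondria, 7 to the nucleus and 5 to vesicles or endosomes, and 10 were left unassigned.

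RNA-seq was performed on NCI-N87, an established human gastric carcinoma cell line, in 3 shNC libraries (genotype Control) and 3 shScamp1 libraries (genotype SCAMP1 Knockdown), which the series design calls shCtrl and shS1#1. Cells of both groups were infected with lentivirus in the presence of polybrene and selected with puromycin (2 μg/ml), and the paper's methods name the empty vector as the control. As a single shRNA was sequenced against a vector without a hairpin, effects of SCAMP1 loss and of hairpin expression cannot be told apart. The libraries of a group are labeled biological replicates, but it is not stated whether they came from separate infections, so p-values measure the spread between these libraries.

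Libraries held 14311769 to 15988700 reads on genes, of which the chaperone genes took 1.18% to 1.29%. SCAMP1, the targeted gene, was at 11.5 to 12.6 FPKM (fragments per kilobase of gene, scaled for library depth) in shNC libraries and at 1.37 to 1.99 FPKM in shScamp1 libraries. Of 9 gastric epithelial carcinoma markers, 8 were at 8.19 FPKM or more in every library, while MUC1 was at 0.816 to 1.01 FPKM. Of these markers, 6 were higher in shScamp1 libraries (for example KRT18, log2 fold change 1.19, adjusted p = 0.00123), and their part in the chaperone results was not tested. In all 6 libraries, 9 markers of leukocytes, endothelium and fibroblasts were at 0.773 FPKM or less, and COL1A2 and DCN were at 0. In shScamp1 replicate 2 the mitochondrially encoded share of reads was 9.21%, against 6.09% to 6.78% elsewhere, and values without this library are given beside the results that it moved most. As these are bulk samples, fewer cells with a transcript and less of it per cell cannot be told apart.

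Of 31 cytosolic genes tested, 9 rose in shScamp1 cells, with HSPB8, HSPA1B, DNAJB1, DNAJB4 and DNAJB6 having the largest fold changes. The mitochondrial HSPD1 and HSPA9 fell, as did DNAJC22, which was assigned to the ER. HSP90 genes, the constitutive HSPA8 and the ER HSP70 gene HSPA5 did not pass the test. Of the 84 rows, 69 had a mean of at least 0.5 FPKM and were tested with limma on log2(FPKM + 0.1); all fold changes below are on that scale. Calls were made at a Benjamini-Hochberg adjusted p under 0.05 over the 15556 genes tested. Of the 69, 10 (14.5%) were higher, against 8.82% of all genes tested, and 3 (4.35%) were lower, against 5.17%. All members are protein-coding, and of the 11529 protein-coding genes tested 10.9% were higher and 5.84% lower. The median log2 fold change of the 69 was 0.00, beside -0.02 over all genes tested. Scaled by total reads instead of the authors' size factors, 8 were higher and 4 lower, while the split over all genes went from 1372 higher and 805 lower to 1138 and 1266. Leaving out 1 library gave 4, 2 and 3 members higher and 0 lower without shNC replicate 1, 2 or 3. It gave 8, 15 and 5 higher with 1, 10 and 1 lower without shScamp1 replicate 1, 2 or 3. Over all genes the same fits, in that order, gave 659, 651, 674, 1143, 2296 and 715 higher. They gave 172, 166, 185, 670, 2078 and 314 lower. With an absolute log2 fold change above 1 as well, 1 member (HSPB8) was higher and 0 were lower, beside 2.42% and 0.746% of all genes; without shScamp1 replicate 3, HSPA1B also passed this limit. The groups did not overlap for 19 members that were higher (27.5%, background 20.4%) and 20 that were lower (28.99%, background 21.0%). Among protein-coding genes tested these shares were 23.8% and 23.9%.

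**Figure D1:**
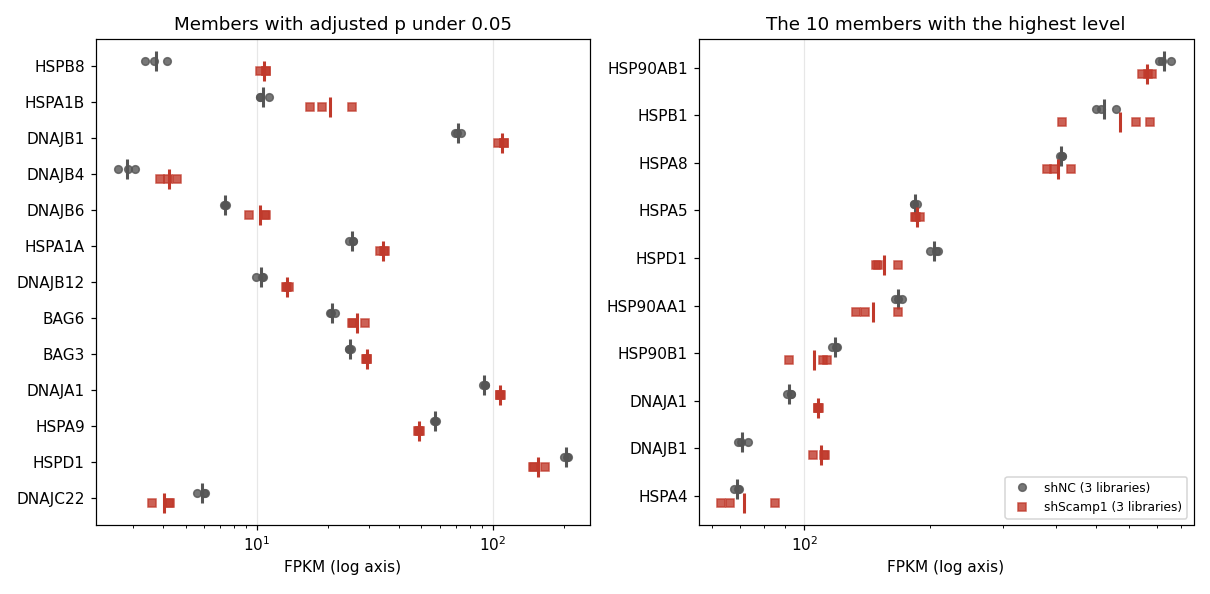
FPKM on a log axis of the 13 members with an adjusted p under 0.05 (left) and of the 10 members with the highest mean (right); gray circles are the 3 shNC libraries, red squares the 3 shScamp1 libraries, and vertical ticks the group means. On the left the groups are separate for every gene, with HSPB8 moving from 3.74 to 10.8 FPKM, and on the right HSPB1 and HSPA4 show 1 shScamp1 library apart from the other 2.

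Some of these genes carry known stress elements near their start, and windows of 6 members are shown so that their changes can be read beside them. Promoter windows of 300 bases (250 before the transcript start and 50 from it) came from RefSeq on GRCh38.p14 and were found for 73 of the 83 symbols. HSF proteins bind arrays of the unit GAA in alternating orientation. Capitals below mark each match to 2 such units, written GAANNTTC, or to 3 units, written GAANNTTCNNGAA. Both strands were searched, and a 3-unit match contains a 2-unit match. The other order of 2 units, TTCNNGAA, was not searched on its own, so such pairs are neither marked nor counted. In the last window the capitals mark the ER stress element, written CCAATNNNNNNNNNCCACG, which is bound by the unfolded protein response factor ATF6 with NF-Y. The first 3 windows belong to genes that rose, HSPD1 to a gene that fell, and HSP90AA1 and HSPA5 to genes that did not pass the test.
HSPA1A (chr6:31815293-31815592, forward strand): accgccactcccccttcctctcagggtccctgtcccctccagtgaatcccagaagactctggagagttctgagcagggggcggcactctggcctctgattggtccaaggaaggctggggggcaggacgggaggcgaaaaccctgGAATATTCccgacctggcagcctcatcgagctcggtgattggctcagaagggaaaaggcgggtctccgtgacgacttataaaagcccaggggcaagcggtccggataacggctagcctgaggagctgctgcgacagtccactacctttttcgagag
DNAJB1 (chr19:14518348-14518647, reverse strand): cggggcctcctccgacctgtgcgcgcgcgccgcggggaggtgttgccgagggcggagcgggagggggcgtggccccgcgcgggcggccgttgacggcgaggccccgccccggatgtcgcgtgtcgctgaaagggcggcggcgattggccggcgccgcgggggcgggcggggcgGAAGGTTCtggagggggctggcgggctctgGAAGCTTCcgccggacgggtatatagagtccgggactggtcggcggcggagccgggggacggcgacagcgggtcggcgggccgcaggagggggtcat
HSPB8 (chr12:119178681-119178980, forward strand): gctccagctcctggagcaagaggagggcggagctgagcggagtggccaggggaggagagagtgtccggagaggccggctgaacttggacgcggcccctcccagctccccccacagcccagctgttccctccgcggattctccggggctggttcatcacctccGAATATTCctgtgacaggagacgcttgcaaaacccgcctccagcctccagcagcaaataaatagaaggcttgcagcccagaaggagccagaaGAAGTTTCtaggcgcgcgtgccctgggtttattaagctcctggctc
HSPD1 (chr2:197499791-197500090, reverse strand): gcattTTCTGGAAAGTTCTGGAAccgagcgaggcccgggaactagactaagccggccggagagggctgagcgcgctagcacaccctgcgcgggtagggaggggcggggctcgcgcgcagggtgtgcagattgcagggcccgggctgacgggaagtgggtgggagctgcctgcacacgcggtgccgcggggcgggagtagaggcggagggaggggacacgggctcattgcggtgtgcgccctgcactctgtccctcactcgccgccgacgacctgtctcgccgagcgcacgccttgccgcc
HSP90AA1 (chr14:102086995-102087294, reverse strand): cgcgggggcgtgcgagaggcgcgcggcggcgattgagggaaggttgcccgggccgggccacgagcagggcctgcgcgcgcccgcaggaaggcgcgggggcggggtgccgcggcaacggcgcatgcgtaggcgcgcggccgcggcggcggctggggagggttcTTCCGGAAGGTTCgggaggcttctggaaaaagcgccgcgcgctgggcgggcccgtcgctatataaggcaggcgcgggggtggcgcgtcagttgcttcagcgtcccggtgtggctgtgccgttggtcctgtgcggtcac
HSPA5 (chr9:125241294-125241593, reverse strand): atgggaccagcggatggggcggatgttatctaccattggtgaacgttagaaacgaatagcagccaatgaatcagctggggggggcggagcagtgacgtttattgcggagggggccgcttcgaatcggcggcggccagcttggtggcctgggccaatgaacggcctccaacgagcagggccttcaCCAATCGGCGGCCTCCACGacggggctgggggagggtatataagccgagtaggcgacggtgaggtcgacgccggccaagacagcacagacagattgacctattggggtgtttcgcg

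A 2-unit match was present in the windows of 18 of the 73 members (24.7%), beside 8.21% of all 27305 genes with a window (6.77% of 35116 windows). Of the 13 called members, BAG3, BAG6, DNAJB4, DNAJB12, DNAJC22 and HSPA9 were not among them. Of these 18, 6 were higher in shScamp1 cells (DNAJA1, DNAJB1, DNAJB6, HSPA1A, HSPA1B and HSPB8), 1 was lower (HSPD1), 8 were tested without a call and 3 were not tested. The stricter 3-unit match was found in 7 members (9.59%), beside 0.608% of all genes (0.490% of windows), and these comprised DNAJA1 and DNAJB6 (higher), HSPD1 (lower) and HSP90AA1, HSP90AB1, HSPA6 and HSPA8 (no call). The element occurred in genes that rose, in 1 that fell and in genes without a call. HSPA5 and HSP90B1 were the 2 members with the ER stress element, which was present in 0.0916% of all genes (0.0769% of windows). A match describes letters in this window and is not evidence of binding.

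HSPB8, a small heat shock protein that works with BAG3 in the autophagic removal of damaged proteins, changed most. It was at 3.68, 4.18 and 3.35 FPKM in shNC libraries and at 10.9, 10.4 and 10.99 FPKM in shScamp1 libraries. Every shScamp1 library lay above every shNC library by more than 6 FPKM. The log2 fold change was 1.51 (SE, the standard error, 0.10; adjusted p = 0.000592), a 2.88-fold rise of the mean from 3.74 ± 0.415 to 10.8 ± 0.340 FPKM (SD, n = 3 each). Its 148 to 460 reads per library sufficed for a call in all 6 fits that left out 1 library. HSPB8 lies on chromosome 12 from 119178642 to 119221131 (forward strand, GRCh38).

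BAG3, its partner and a nucleotide exchange factor of HSP70, rose by far less. BAG3 was at 24.7, 24.7 and 25.2 FPKM in shNC and at 29.1, 29.4 and 29.5 FPKM in shScamp1 libraries. The groups were tight and separate, with a log2 fold change of 0.24 (SE 0.05, adjusted p = 0.0382), but the call was kept in only 1 of the 6 fits that left out a library, the one without shScamp1 replicate 2. BAG6, which guards newly made membrane proteins in the cytosol, was at 20.7, 20.4 and 21.4 FPKM in shNC and at 25.4, 28.8 and 25.7 FPKM in shScamp1 libraries. The groups did not overlap, and its log2 fold change was 0.35 (adjusted p = 0.0270). The call of BAG6 was kept in 2 of 6 fits, those without shScamp1 replicate 1 or 2, and was lost after quantile normalization (adjusted p = 0.0611) and without the variance trend (0.0510). The other BAG genes did not pass the test, with log2 fold changes from -0.35 for BAG2 (adjusted p = 0.0703) to 0.19 for BAG4 (adjusted p = 0.341).

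Among the HSP70 genes, only the stress-inducible pair HSPA1A and HSPA1B was called higher of the 12 rows tested. HSPA1A was at 25.7, 24.6 and 25.6 FPKM in shNC and at 34.7, 34.95 and 33.2 FPKM in shScamp1 libraries. HSPA1B was at 10.4, 10.3 and 11.3 FPKM in shNC and at 19.0, 25.4 and 16.9 FPKM in shScamp1 libraries. Both genes were higher in all shScamp1 libraries, and HSPA1B was highest in shScamp1 replicate 2. The log2 fold changes were 0.44 for HSPA1A (SE 0.06, adjusted p = 0.00666) and 0.91 for HSPA1B (SE 0.15, adjusted p = 0.0135). HSPA1A lost its call without shNC replicate 2 (adjusted p = 0.0519), and HSPA1B without any 1 of the shNC libraries (up to 0.0653). The pair lies on chromosome 6 from 31815464 to 31830255, and 72.6% of the 50-base windows of the HSPA1A transcript occur unchanged in HSPA1B, so reads could be assigned to either copy. In addition, AL671762.1 (listed at 0 in all libraries) covers 36.5% of the exon bases of HSPA1B. Summed over both genes, which avoids the assignment between them, the level rose from 36.0 ± 1.04 to 54.7 ± 5.23 FPKM (SD, n = 3 each; two-sided exact permutation p = 0.1, the lowest that 3 against 3 libraries allow). HSPA1B took 29.1% to 31.0% of the reads of the pair in shNC libraries and 34.03% to 42.5% in shScamp1 libraries.

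Constitutive cytosolic HSP70 showed no such difference. HSPA8, the housekeeping HSP70, was at 414, 416 and 410 FPKM in shNC and at 396, 436 and 382 FPKM in shScamp1 libraries. The groups overlapped, and the log2 fold change of -0.03 had a 95% confidence interval from -0.23 to 0.17. HSPA6, which is induced almost only by severe stress, was near the filter at 0.375 to 0.582 FPKM in all libraries (log2 fold change -0.18, adjusted p = 0.708). HSPA2 (log2 fold change -0.03, adjusted p = 0.783) also had no call. In the HSP110 family, whose members exchange nucleotide on HSP70, HSPH1 was at 29.8 to 31.1 FPKM in shNC and at 26.0 to 29.2 FPKM in shScamp1 libraries. These ranges did not overlap, but the adjusted p was 0.186 with 6 libraries and 0.0177 without shScamp1 replicate 2. HSPA4 was at 67.9 to 69.7 FPKM in shNC and at 63.2, 85.2 and 66.6 FPKM in shScamp1 libraries, where replicate 2 alone was higher than shNC (log2 fold change 0.04, adjusted p = 0.840; -0.09 without replicate 2).

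Of 8 tested J-domain genes of class B, 4 were higher (50%, against 8.82% of all genes tested) and 0 lower, with a median log2 fold change of 0.43. DNAJB1, the main stress-inducible partner of HSP70, was at 69.5, 70.5 and 73.5 FPKM in shNC and at 112, 105 and 112 FPKM in shScamp1 libraries. This was a 54.1% rise with a wide gap between the groups (log2 fold change 0.62, SE 0.06, adjusted p = 0.00240), called in all 6 fits without 1 library. DNAJB1 shares 5.75% of its exon bases with TECR on the opposite strand, and whether reads were counted by strand is not given. Set against HSPA8 in the same library, DNAJB1 was at 16.8% to 17.9% of its FPKM in shNC and at 24.1% to 29.2% in shScamp1 libraries.

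DNAJB4 and DNAJB6 followed the same direction. DNAJB6, which suppresses the aggregation of polyglutamine and amyloid proteins, was at 7.25, 7.45 and 7.33 FPKM in shNC and at 10.8, 9.27 and 10.9 FPKM in shScamp1 libraries. DNAJB4, a relative of DNAJB1, was at 3.05, 2.59 and 2.84 FPKM in shNC and at 4.22, 4.62 and 3.90 FPKM in shScamp1 libraries. Neither gene overlapped between the groups, and the log2 fold changes were 0.48 for DNAJB6 (adjusted p = 0.0147) and 0.57 for DNAJB4 (adjusted p = 0.0160). With 1 library omitted, DNAJB6 was called in 2 of 6 fits (without shScamp1 replicate 1 or 2) and DNAJB4 in 4 of 6 (lost without shNC replicate 2 or 3). DNAJB2, at 11.9 to 14.03 FPKM in shNC and 14.5 to 18.4 FPKM in shScamp1 libraries, missed the threshold (log2 fold change 0.38, adjusted p = 0.0740). In class A, DNAJA1, which serves cytosolic HSP70 at high abundance, was at 93.0, 92.8 and 90.9 FPKM in shNC and at 108, 108 and 108 FPKM in shScamp1 libraries. Its log2 fold change of 0.23 was just past the threshold (adjusted p = 0.0487) and was called in 1 of 6 fits without a library, the one without shScamp1 replicate 2. The cytosolic DNAJA2 (log2 fold change 0.20, adjusted p = 0.113) and DNAJA4 (0.00, adjusted p = 0.979) had no call.

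The large DNAJC class, whose members share little beyond the J domain, had few calls. Of 24 tested, 0 were higher and 1 was lower (DNAJC22) with limma and with voom, and the median log2 fold change was 0.00. An unadjusted p under 0.05 was found for 5 of the 24, beside 4782 of all 15556 genes tested. DNAJC5, the synaptic vesicle chaperone CSPα, was at 34.5 to 36.2 FPKM in shNC and at 42.2, 51.7 and 40.9 FPKM in shScamp1 libraries (log2 fold change 0.33, adjusted p = 0.0806). DNAJC13, an endosomal protein, was at 8.54 to 8.95 FPKM in shNC and at 8.68, 12.99 and 9.92 FPKM in shScamp1 libraries (log2 fold change 0.24, adjusted p = 0.320; 0.08 without shScamp1 replicate 2). DNAJC6, or auxilin, which helps to uncoat clathrin vesicles, was at 1.23 to 1.33 FPKM in shNC and at 0.9747 to 1.21 FPKM in shScamp1 libraries (log2 fold change -0.18, adjusted p = 0.440). These 3 members work at membranes of the endocytic or secretory route, and none passed the test.

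The 3 HSP90 genes were among the most abundant members and had lower values without a call (0 with limma or voom, and 0 with an unadjusted p under 0.05). HSP90AB1, the constitutive cytosolic form and the highest of the 84 rows, was at 721, 706 and 756 FPKM in shNC and at 682, 644 and 666 FPKM in shScamp1 libraries. HSP90AA1, the inducible form, was at 171, 167 and 165 FPKM in shNC and at 133, 167 and 140 FPKM in shScamp1 libraries. HSP90B1, the ER form, was at 119, 117 and 120 FPKM in shNC and at 111, 92.2 and 114 FPKM in shScamp1 libraries. The groups were apart for HSP90AB1 and HSP90B1 and overlapped for HSP90AA1 through shScamp1 replicate 2. The log2 fold changes were -0.13 for HSP90AB1 (95% confidence interval from -0.33 to 0.06, adjusted p = 0.314), -0.20 for HSP90AA1 (from -0.45 to 0.04, adjusted p = 0.228) and -0.17 for HSP90B1 (from -0.40 to 0.06, adjusted p = 0.272). Without shScamp1 replicate 2, HSP90AA1 was called lower (log2 fold change -0.30, adjusted p = 0.00338), while HSP90B1 was at -0.08 without a call.

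**Figure D2:**
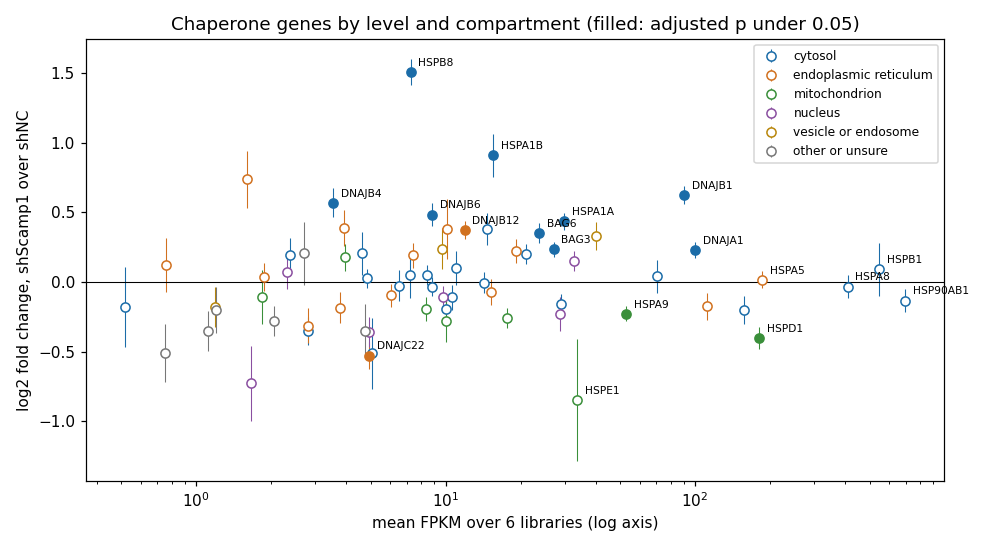
Log2 fold change of shScamp1 over shNC against mean FPKM over 6 libraries (log axis) for the 69 tested members; bars are standard errors, colors mark compartments, and filled points have an adjusted p under 0.05. HSPB8 lies highest at 1.51, the abundant HSP90AB1, HSPA8 and HSPA5 lie near 0, and HSPE1 has the widest bar (0.44).

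In mitochondria, 7 of 8 tested genes had lower values, with 2 called lower, 0 called higher (1 and 0 with voom) and a median log2 fold change of -0.24. Over all 15556 genes tested, 8151 had negative log2 fold changes and 5.17% were called lower. HSPD1, the chaperonin HSP60, was at 209, 206 and 200 FPKM in shNC and at 150, 168 and 149 FPKM in shScamp1 libraries. HSPA9, the mitochondrial HSP70 that pulls in imported proteins, was at 57.6, 57.3 and 56.5 FPKM in shNC and at 48.8, 49.1 and 48.5 FPKM in shScamp1 libraries. Both were lower in every shScamp1 library, with log2 fold changes of -0.40 for HSPD1 (SE 0.08, adjusted p = 0.0199) and -0.23 for HSPA9 (SE 0.06, adjusted p = 0.0433). With single libraries omitted, HSPD1 and HSPA9 were each called in 1 of 6 fits, the one without shScamp1 replicate 2 (adjusted p = 0.000608 and 0.00442), although HSPD1 kept a log2 fold change between -0.46 and -0.37 and HSPA9 between -0.24 and -0.22. DNAJA3, the J-domain partner of HSPA9, was at 18.7 to 19.6 FPKM in shNC and at 14.9 to 17.0 FPKM in shScamp1 libraries and missed the threshold (log2 fold change -0.26, adjusted p = 0.0681).

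HSPE1, the lid of the HSPD1 chamber, depended on 1 library. It was at 41.2, 39.4 and 43.7 FPKM in shNC and at 37.3, 10.9 and 29.8 FPKM in shScamp1 libraries, where replicate 2 was by far the lowest. The log2 fold change was -0.85 (SE 0.44, adjusted p = 0.243), and -0.31 without that library. HSPD1 and HSPE1 lie head to head on chromosome 2 (197486581 to 197516737 and 197499994 to 197503457), and their annotated exons share 281 bases on opposite strands. A promoter window of HSPE1 overlaps one of HSPD1 by 204 bases in the opposite orientation. The FPKM ratio of HSPD1 to HSPE1 was 4.58 to 5.24 in shNC libraries and 4.03, 15.4 and 4.99 in shScamp1 replicates 1, 2 and 3. The mitochondrial J-domain genes DNAJC11 (-0.19), DNAJC19 (-0.28), DNAJC30 (-0.11) and DNAJC15 (0.18, the only positive log2 fold change of the 8) had no call; without shScamp1 replicate 2, DNAJC19 was at -0.13 and DNAJC30 at 0.08.

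In the ER, no common direction was seen, with 1 of 15 tested genes higher, 1 lower and a median log2 fold change of 0.03, which was -0.04 after scaling by total reads. HSPA5, or BiP, the ER HSP70 that rises in the unfolded protein response, was at 183, 183 and 186 FPKM in shNC and at 185, 190 and 184 FPKM in shScamp1 libraries. The libraries overlapped within a narrow range, and the 95% confidence interval of the log2 fold change (0.02) ran from -0.13 to 0.17. DNAJB12, an ER membrane protein that aids the degradation of misfolded membrane proteins, was at 9.96, 10.6 and 10.6 FPKM in shNC and at 13.4, 13.7 and 13.4 FPKM in shScamp1 libraries (log2 fold change 0.37, SE 0.06, adjusted p = 0.0124). Its call was lost without any 1 of the shNC libraries or shScamp1 replicate 3 (adjusted p up to 0.0723). DNAJC22 was at 6.04, 5.57 and 5.97 FPKM in shNC and at 4.28, 3.59 and 4.27 FPKM in shScamp1 libraries, without overlap. It had a log2 fold change of -0.53 (SE 0.09, adjusted p = 0.0161) and was not called without any 1 of the shNC libraries (adjusted p up to 0.0795). DNAJB9, a partner of HSPA5 that is induced by ER stress, was at 1.00 to 1.45 FPKM in shNC and at 1.57 to 2.39 FPKM in shScamp1 libraries (log2 fold change 0.74, adjusted p = 0.0648; 0.0176 without shScamp1 replicate 2). DNAJC3, an inhibitor of the kinase PERK, was at 8.21 to 9.10 FPKM in shNC and at 8.90, 15.9 and 9.91 FPKM in shScamp1 libraries, where replicate 2 again stood apart (log2 fold change 0.38, adjusted p = 0.276; 0.13 without replicate 2).

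**Figure D3:**
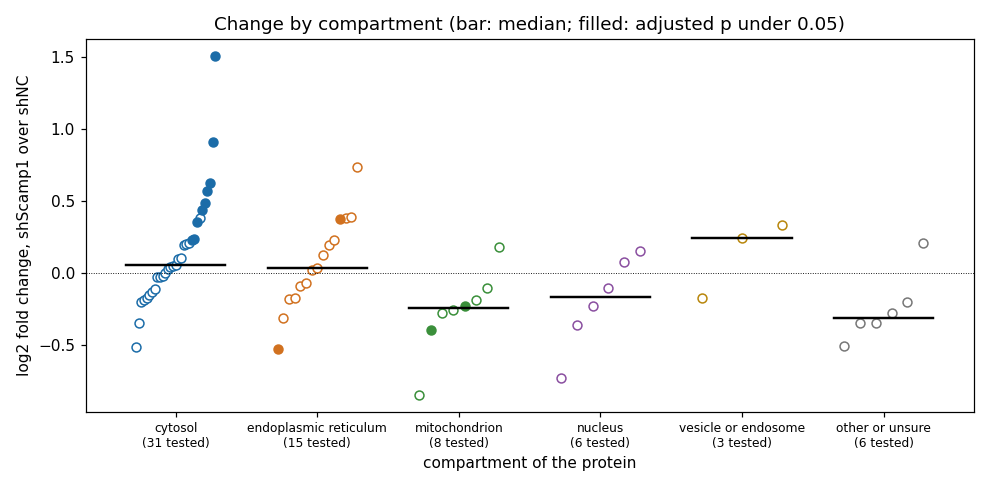
Log2 fold change of shScamp1 over shNC for each tested member by compartment; horizontal bars are medians and filled points have an adjusted p under 0.05. The 9 filled points of the cytosol are all above 0, the 2 of mitochondria are below 0, and the medians are 0.05 for the cytosol, 0.03 for the ER and -0.24 for mitochondria.

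Set side by side, 9 of 31 cytosolic genes tested (29.03%) were higher and 0 lower, 1 of 15 ER genes were in each direction, and 0 of 8 mitochondrial genes were higher and 2 (25%) lower. Over all genes tested 8.82% were higher and 5.17% lower, so the ER shares of 6.67% each way lay near the background. Among protein-coding genes tested, 10.9% were higher and 5.84% lower. The mitochondrial median of -0.24 lay below the median of all genes (-0.02). The cytosolic median of 0.05 became -0.02 after scaling by total reads, with 7 higher and 0 lower. Higher cytosolic genes numbered 4, 2 and 3 without shNC replicate 1, 2 or 3, and 7, 11 and 5 without shScamp1 replicate 1, 2 or 3. Without shScamp1 replicate 2, 3 cytosolic and 3 mitochondrial genes were lower, and in each other left-out fit 0 of either were. In the fit without shScamp1 replicate 2, 14.9% of all genes were higher and 13.4% lower. Differences between compartments were not tested, because members of a compartment are not replicates of it. The 6 nuclear, 3 vesicle or endosome and 6 unassigned genes tested had 0 calls with limma or voom. An unadjusted p under 0.05 was found for 2, 1 and 3 of them, beside 4782 of all 15556 genes tested.

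Of the heat shock factors, HSF1, the main activator of the heat shock response, was at 30.01, 30.2 and 32.7 FPKM in shNC and at 33.6, 36.9 and 32.7 FPKM in shScamp1 libraries. The shScamp1 libraries were higher by a small margin (log2 fold change 0.15, 95% confidence interval from -0.03 to 0.33, adjusted p = 0.229). HSF2 was at 5.79, 5.80 and 5.10 FPKM in shNC and at 4.61, 3.76 and 4.60 FPKM in shScamp1 libraries (log2 fold change -0.36, adjusted p = 0.0789). HSF4 was at 1.92 to 2.19 FPKM in shNC and at 1.26, 0.779 and 1.74 FPKM in shScamp1 libraries, from 36 to 117 reads per library (log2 fold change -0.73, adjusted p = 0.126; -0.45 without shScamp1 replicate 2). HSF5 had at most 1 read per library and was not tested. The transcript level of HSF1 does not measure its activity, which is set largely after translation.

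The remaining small heat shock proteins showed how strongly 1 library could weigh. HSPB1, or HSP27, the second most abundant member, was at 501, 513 and 558 FPKM in shNC and at 672, 414 and 625 FPKM in shScamp1 libraries. Replicates 1 and 3 of shScamp1 lay above and replicate 2 below all shNC libraries. The log2 fold change was 0.09 (adjusted p = 0.775) with all libraries and 0.31 (adjusted p = 0.0157) without replicate 2. HSPB3 (2.80 to 6.9985 FPKM) and HSPB11 (2.98 to 5.68 FPKM), the latter known as a ciliary transport protein, had no call and were lowest in the same library; their log2 fold changes were -0.51 and -0.35, and -0.25 and -0.13 without it. The other 4 small heat shock protein genes (HSPB2, HSPB6, HSPB7 and HSPB9) had 0 to 3 reads per library.

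Among tested members, the log2 difference of shScamp1 replicate 2 from the mean of replicates 1 and 3 correlated with log2 gene length (Pearson r = 0.49, Spearman rho = 0.39, 69 genes of the same libraries, given as a description). With each library set against the others of its group, r was -0.54 (rho = -0.44) in shScamp1 replicate 1 and -0.27 (rho = -0.25) in replicate 3. Such differences balance within a group by construction, so the correlations of a group are not separate results. The construction does not set how the balance is shared between replicates 1 and 3. The 3 tested members under 2000 bases had a median difference of 0.68 in shScamp1 replicate 1, -0.78 in replicate 2 and 0.24 in replicate 3. In the shNC libraries r lay between -0.10 and 0.24. HSPE1 (1977 bases, -1.60), HSPB3 (784 bases, -0.78) and HSPB1 (1634 bases, -0.65), the 3 tested members under 2000 bases, were far below the other replicates. Of longer members, HSF4 was also far below, and DNAJB9 (2837 bases, -0.48) and DNAJC19 (3586 bases, -0.43) were below by less. DNAJC3 (5591 bases, 0.76) was far above. Left out, replicate 2 gave 15 members higher and 10 lower, beside 14.9% and 13.4% of all genes in that fit. The added calls were DNAJB2, DNAJB9, DNAJC4, DNAJC5 and HSPB1 among the higher members and BAG2, DNAJA3, DNAJB14, HSF2, HSP90AA1, HSPA12A and HSPH1 among the lower ones. The part of length or RNA quality in these differences was not tested.

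**Figure D4:**
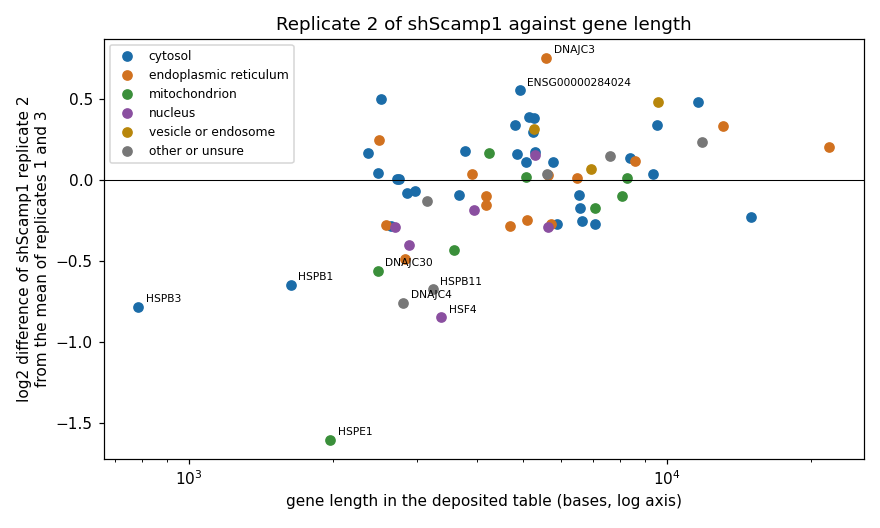
Log2 difference of shScamp1 replicate 2 from the mean of shScamp1 replicates 1 and 3 for the 69 tested members, against gene length in bases (log axis); colors mark compartments. HSPE1 lies lowest at -1.60, short genes such as HSPB1 and HSPB3 lie below 0, as does the longer HSF4, and DNAJC3 lies highest at 0.76.

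Other genes of protein folding were taken from lists written by hand. Of 18 tested co-chaperones of HSP70 and HSP90 (19 listed), 1 was higher (5.56%, near the 8.82% of all genes), 0 were lower, and 16 had negative log2 fold changes, with a median of -0.13. The higher one was ST13, or HIP, which stabilizes substrate-bound HSP70, at 40.5, 42.7 and 42.2 FPKM in shNC and at 68.5, 71.4 and 66.0 FPKM in shScamp1 libraries (log2 fold change 0.71, adjusted p = 0.00149). Without shScamp1 replicate 2, 1 co-chaperone was higher, 4 were lower and 12 had negative log2 fold changes. In that fit 14.9% of all genes were higher and 13.4% lower. Of 14 subunits of the cytosolic chaperonin TRiC and of prefoldin, 0 were higher and 1 (7.14%) was lower (CCT6A, log2 fold change -0.24, adjusted p = 0.0496). Negative log2 fold changes were seen for 13 (median -0.16). Without shScamp1 replicate 2, 1 of these subunits was higher, 4 were lower and 13 had negative log2 fold changes. Among 12 mitochondrial folding and protease genes, 0 were higher and 2 (16.7%) lower, and 11 were negative (median -0.15). Over all 15556 genes tested, 5.17% were called lower and 8151 had negative log2 fold changes. The 2 lower mitochondrial genes were TRAP1, the mitochondrial HSP90, which fell from 37.8 ± 0.940 FPKM in shNC to 28.1 ± 0.313 FPKM in shScamp1 libraries (SD, n = 3 per group; log2 fold change -0.43, adjusted p = 0.00619), and TIMM44, which tethers HSPA9 to the import channel (-0.27, adjusted p = 0.0429).

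The ER folding and unfolded protein response list had 30 of 31 genes tested, with 3 higher (10%), 1 lower (3.33%) and a median log2 fold change of 0.02. With all 6 libraries these shares lay near those of all genes (8.82% and 5.17%). Without shScamp1 replicate 2, 8 of the 30 were higher and 5 lower, beside 14.9% and 13.4% of all genes in that fit. ERO1A, an oxidase for disulfide formation, rose from 12.1 ± 0.496 FPKM in shNC to 23.0 ± 1.48 FPKM in shScamp1 libraries (SD, n = 3 per group; log2 fold change 0.91, adjusted p = 0.00114). HERPUD1 (0.78, adjusted p = 0.0115), which acts in ER-associated degradation, and PPP1R15A (0.53, adjusted p = 0.0466), which reverses eIF2α phosphorylation, were the other higher genes, and DERL1 was lower (-0.25, adjusted p = 0.0436). Among other heat shock response genes, HMOX1, or heme oxygenase (log2 fold change 1.00, adjusted p = 0.00132), and the autophagy receptor gene SQSTM1 (0.83, adjusted p = 0.000657) were higher. In the same list, SERPINH1 (-0.28, adjusted p = 0.160) and UBB (-0.21, adjusted p = 0.314) had negative log2 fold changes without a call.

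The 15 members that were not tested had from 0 to 30 reads per library. DNAJB5 and DNAJB13 were covered by 10 to 30 reads, DNAJC12 by 0 to 18 and DNAJC28 by 3 to 11. HSPA1L, DNAJB7, DNAJB8, DNAJC5G, HSPB6, HSPB7, HSPB9 and HSF5 had at most 7 reads, and HSPB2, DNAJC5B and the readthrough gene DNAJC25-GNG10 had 0 reads in all 6 libraries. The groups did not overlap for DNAJC12 (0.387, 0.509 and 0.397 FPKM in shNC and 0.194, 0 and 0.129 FPKM in shScamp1 libraries) or DNAJC28 (0.229, 0.169 and 0.0782 against 0.276, 0.323 and 0.275 FPKM). Neither was called in the fit without a filter (adjusted p = 0.168 and 0.397). Expression of the 84 genes was concentrated, with the 10 most abundant holding 78.7% to 80.6% of their summed FPKM in each library. Together the members took 1.28% ± 0.00435 of all reads on genes in shNC and 1.1999% ± 0.0222 in shScamp1 libraries (SD, n = 3 each; two-sided exact permutation p = 0.1).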

How the data were processed

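Total RNA of NCI-N87 cells was sequenced in 3 shNC and 3 shScamp1 libraries. For every gene the authors deposited an FPKM value in each library beside its length, position and biotype; per the submitters' processing notes, HISAT2 2.0.5, featureCounts 1.5.0-p3 and DESeq2 1.20.0 were used on hg38, and strand and multi-mapping settings are not given in the sources used here. The product of FPKM and length was a whole multiple of 1 step per library for 100% of values above 0 (tolerance 0.05), which gave reads per gene (14311769 to 15988700 per library). The steps equaled those predicted from median-of-ratios size factors (0.914 to 1.11), so no further scaling was applied. Coordinates of all 84 members equaled GENCODE 29.

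Genes averaging 0.5 FPKM or more were tested with limma 3.58.1 in R 4.3.3 on log2(FPKM + 0.1), with a mean-variance trend and Benjamini-Hochberg adjustment; the fit was tested on simulated reads. A member was called at an adjusted p under 0.05. No block was used: deviations of same-numbered libraries correlated at -0.035, 0.032 and 0.067. The members, lists, compartments and the naming rule (members called, the 10 highest, HSP90 and HSF genes, and called list genes) were chosen with earlier results of these data known, and other genes were named after their values were seen. Promoter motifs and summaries were computed in Python 3.11.15 with pandas 2.3.3. Alternatives covered pseudocount, filter, scaling, trend, biotype, voom on recovered reads, the replicate block and left-out libraries; both scalings by total reads were added after the data were seen. No column of sample values was left out. Some genes of the hand-written lists, and the list counts that include them, are not reported here.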

Additional observations from a re-analysis of the deposited data

How the results depend on the processing

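The counts of 10 members higher and 3 lower were unchanged with a pseudocount of 1 or 0.01 and with a minimum mean of 1 FPKM, and voom gave 11 and 3. Higher and lower members numbered 9 and 1 without a filter, 12 and 5 with protein-coding genes alone, 8 and 4 with scaling by total reads, 8 and 5 with the same without mitochondrial genes, 7 and 2 after quantile normalization and 7 and 3 without a trend. Both of the last settings ended the calls of BAG3, BAG6, DNAJA1 and HSPA9. Over all genes tested these settings gave, in that order, 1100, 1570, 1138, 1151, 1310 and 1208 higher. They gave 514, 1056, 1266, 1320, 1005 and 652 lower. A replicate block gave 3 higher (DNAJB1, HSPA1B, HSPB8) and 1 lower (DNAJC22) (704 and 254 over all genes, against 1372 and 805). The labels link same-numbered libraries by number alone, and their deviations correlated at -0.035, 0.032 and 0.067. Deviations of shNC replicates 2 and 3 correlated best with the shScamp1 library of the same number, and those of replicate 1 with number 2. So few libraries cannot settle whether same-numbered ones were paired. Leaving out 1 library gave 2 to 15 members higher, 0 to 10 lower, 1 to 2 past the fold limit and a median log2 fold change from -0.0203 to 0.0082. The median was 0.0294 without a filter, 0.0069 with a minimum of 1 FPKM, 0.0126 after quantile normalization, -0.0782 after scaling by total reads and -0.0704 without mitochondrial genes. Among 24 genes followed under every alternative (those called, the 10 most abundant, the tested HSP90 and HSF genes, and HSPE1), signs turned for HSPA4 (-0.0326 and -0.0247 under these scalings, -0.0883 to 0.1261 with 1 library left out, lowest without shScamp1 replicate 2), HSPA5 (-0.0575 and -0.0496), HSPA8 (0.0512 after quantile normalization, -0.0863 to 0.0082 with 1 library left out, highest without shScamp1 replicate 3) and HSPB1 (-0.0414 to 0.3076 with 1 library left out, lowest without shScamp1 replicate 1); none of these 4 was called with all libraries, and the cause was not tested. Of the other values for these 24 genes, 97 kept direction and side of the threshold when a library was left out, 41 lost and 3 gained a call; under other settings 232 kept both and 27 lost the call. Over all 69 tested members, 12 turned sign when 1 library was left out, 0 of them called with all libraries. With 3 libraries a group, the exact test cannot go below p = 0.1.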
